A study of Homo sapiens with 2 samples.

Results

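The distal long arms of chromosomes 10 and 17 carried 230 of the 24258 peaks that TRF2 chromatin immunoprecipitation gave in HCT116, an established line of colorectal carcinoma cells. The members are every listed peak whose summit lay on chromosome 10 from 95300001 to 133797422 (129 peaks over 38.5 Mb, bands q24 to q26) or on chromosome 17 from 39800001 to 83257441 (101 peaks over 43.5 Mb, bands q21 to q25), in hg38. Each long arm also has a proximal part, which runs from 2 Mb beyond the centromere band to the start of the distal part and held 46 peaks on 10q and 4 on 17q. The design had 1 library immunoprecipitated with an antibody to TRF2 and 1 library of input, meaning sonicated chromatin without antibody selection. Both came from cells fixed with 1% formaldehyde 72 h after plating. A control siRNA appears in the name of the peak list but no transfection appears in the labels, so the cells are described here as labelled. As each group was a single library, no test between samples was possible. The 95% intervals given here cover counting error only and treat peaks as independent of each other.

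TRF2, encoded by TERF2, is a subunit of shelterin, the protein complex that binds telomere repeats and keeps chromosome ends from being read as DNA breaks. Its Myb-type domain binds the double-stranded repeat TTAGGG, and it has also been found at interstitial sites away from chromosome ends. HCT116 is a near-diploid line with few chromosome rearrangements, and by general knowledge of the line the distal parts of 10q and 17q are present in extra copies. The peak list holds no copy number. It gives the input only as the local background at each summit, worked back from the deposited fold and p-value. That background lay above its genome-wide minimum of 1.05 at 44 of 129 distal 10q peaks (34.1%, exact binomial interval 26.0% to 43.0%) and at 4 of 46 proximal 10q peaks (8.70%, 2.42% to 20.8%). On 17q it lay above the minimum at 17 of 101 distal peaks (16.8%, 10.1% to 25.6%) and at 1 of 4 proximal peaks. Without the last 200 kb of 10q and of 17q these shares were 28.6% on distal 10q and 16% on distal 17q. On the other arms, whose ends were kept, the share was 23.8% of all peaks (22.3% to 25.3%). These values cover the summits alone, so the gain itself was not measured here.

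None of the 230 peaks overlapped a promoter window, taken as 250 bases before to 50 bases after a gene start, in a RefSeq table that holds protein-coding and long noncoding RNA genes and no pseudogenes. The pair of windows in that table whose gene starts lay closest to a summit are shown, since no sequence of the peaks themselves was used here. They come from RefSeq on GRCh38.p14, are on the plus strand, and have any TTAGGG or its reverse complement CCCTAA in capitals. LINC02930, a long noncoding RNA gene, has its window at chr10:120608332-120608631, and the summit lay 489 bases before its start. PNLIPRP3, which encodes a pancreatic lipase-related protein, has its window at chr10:116427597-116427896, and the summit lay 709 bases before its start.
LINC02930: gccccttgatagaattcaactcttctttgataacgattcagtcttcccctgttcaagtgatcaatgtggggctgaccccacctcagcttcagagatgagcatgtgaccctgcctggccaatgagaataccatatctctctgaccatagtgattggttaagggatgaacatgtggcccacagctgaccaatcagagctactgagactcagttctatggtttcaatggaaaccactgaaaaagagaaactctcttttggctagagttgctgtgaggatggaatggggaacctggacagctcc
PNLIPRP3: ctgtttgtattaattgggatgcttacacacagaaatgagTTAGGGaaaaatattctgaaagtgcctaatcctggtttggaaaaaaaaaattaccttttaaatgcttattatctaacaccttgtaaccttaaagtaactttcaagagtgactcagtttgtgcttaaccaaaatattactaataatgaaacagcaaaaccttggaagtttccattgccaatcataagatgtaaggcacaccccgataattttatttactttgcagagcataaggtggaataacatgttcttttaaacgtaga
The PNLIPRP3 window held 1 TTAGGG and the LINC02930 window none. Either orientation of this hexamer was found in 52 of 548 promoter windows on distal 10q (9.49%), in 79 of 921 on distal 17q (8.58%) and in 3179 of all 35116 windows in the table (9.05%).

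The only miRNA genes within 3 kb of a member peak were MIR4524A and MIR4524B, of 85 hairpins counted as 30 on distal 10q and 55 on distal 17q. They overlap on opposite strands of chromosome 17, and both lie beside a single peak of 5 reads at chr17:69098349-69098439 (fold 2.93). From the summit of that peak, MIR4524B lay 1160 bases away and MIR4524A 1182 bases away. Their mature sequences are shown with the seed, bases 2 to 8, in capitals. They come from RefSeq on GRCh38.p14.
hsa-miR-4524a-5p: aUAGCAGCaugaaccugucuca
hsa-miR-4524b-5p: aUAGCAGCauaagccugucuc
hsa-miR-4524a-3p: uGAGACAGgcuuaugcugcuau
hsa-miR-4524b-3p: gAGACAGGuucaugcugcua
The 5p arms share the seed UAGCAGC, and the 3p arms have the seeds GAGACAG and AGACAGG.

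Peaks were dense on both distal parts. Both intervals were chosen with earlier results of these data known, so the densities are descriptions. The density of distal 10q was 3.35 peaks per Mb (exact Poisson interval from 2.80 to 3.98), against 0.890 (0.651 to 1.19) on proximal 10q, a ratio of 3.77 (exact interval 2.67 to 5.39). That of distal 17q was 2.32 peaks per Mb (1.89 to 2.82), against 0.385 per Mb (0.105 to 0.985) on proximal 17q, a ratio of 6.04 (2.29 to 22.6) that rests on 4 proximal peaks. The other chromosome arms together, outside centromere bands, 2 Mb around them and heterochromatin, had 1.18 per Mb (1.13 to 1.22). Single arms among them varied widely, from 0.143 per Mb on Yq to 2.17 on 1q and 5.78 on 8q. The interval of distal 17q included the density of 1q. Distal 10q was 2.85 times as dense as the other arms together (2.37 to 3.40) and distal 17q was 1.98 times as dense (1.61 to 2.41). Bins at whole multiples of 5 Mb were also used. Without the densest of these bins on 17q, 50 to 55 Mb, the 17q ratio was only 1.13 (0.838 to 1.49). Between the distal parts, 10q was 1.44 times as dense as 17q (1.10 to 1.89). Distal 8q from band q13 outward, which HCT116 is also known to carry in extra copies, had 6.67 peaks per Mb (6.12 to 7.26). Distal 10q reached 0.502 of the distal 8q density (0.411 to 0.610) and distal 17q reached 0.348 (0.279 to 0.432).

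**Figure D1:**
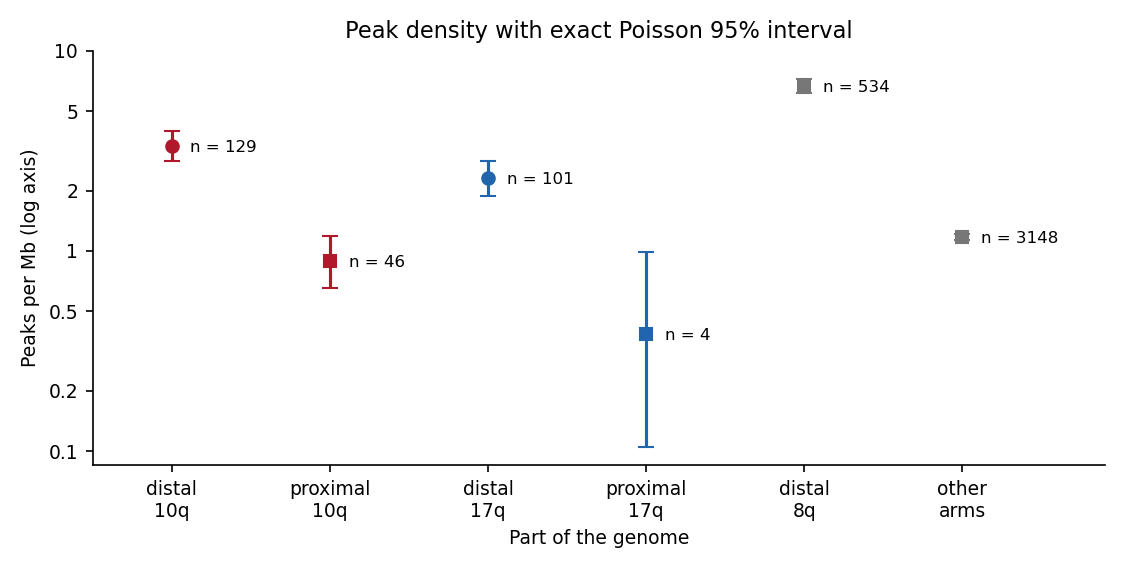
Peaks per Mb (log axis) in 6 parts of the genome, with exact Poisson 95% intervals as bars and the number of peaks beside each point. Distal 10q (3.35) and distal 17q (2.32) stand above their own proximal parts (0.890 and 0.385) and above the other arms (1.18), and below distal 8q (6.67).

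Nearly all of these peaks were shallow. The immunoprecipitated pileup at the summit was 5 to 8 reads in 108 of 129 distal 10q peaks (83.7%, exact binomial interval 76.2% to 89.6%) and in 96 of 101 distal 17q peaks (95%, 88.8% to 98.4%), against 79.2% (77.8% to 80.6%) of the 3148 peaks on the other arms. The commonest pileup was 7 reads on distal 10q, in 42 peaks, and 6 reads on distal 17q, in 41 peaks. At the lowest input background each pileup gives 1 fixed fold, which is 2.93 for 5 reads, 3.41 for 6, 3.90 for 7 and 4.39 for 8. Median fold over input was accordingly 3.76 on distal 10q (range 1.82 to 7.88) and 3.41 on distal 17q (2.76 to 9.52), against 3.76 on the other arms. Of the members, 56 on 10q (43.4%) and 55 on 17q (54.5%) had the smallest width in the list, 69 bp, as did 45.3% of the peaks on the other arms.

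**Figure D2:**
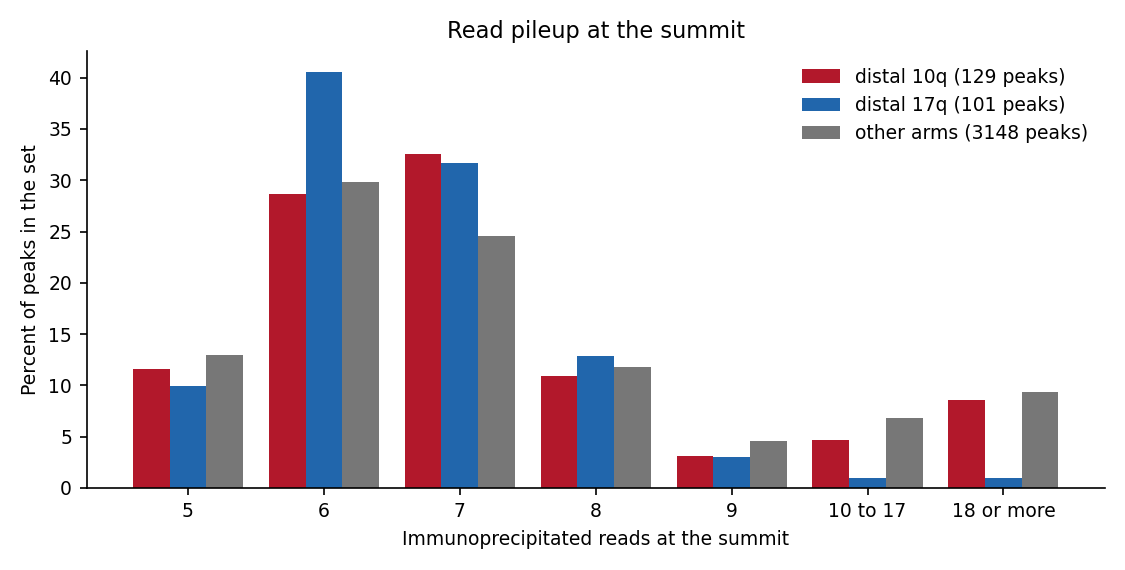
Percent of peaks (vertical axis) at each number of immunoprecipitated reads at the summit (horizontal axis), for distal 10q (129 peaks), distal 17q (101 peaks) and the other arms (3148 peaks). On distal 17q 40.6% of peaks had 6 reads, whereas on distal 10q 32.6% had 7 reads, and 8.53% of distal 10q peaks had 18 reads or more.

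Few members passed a strict threshold. A q-value under 0.05 was reached by 74 peaks of distal 10q (57.4%) and 48 of distal 17q (47.5%), or 53.0% of the members, where 79.3% of all listed peaks and 54.8% of the peaks on the other arms passed. At a −log10 q of 5 or more, called strong here, there were 14 on distal 10q (10.9%, exact interval 6.06% to 17.5%) and 1 on distal 17q (0.990%, 0.0251% to 5.39%), or 6.52% of the members, against a background of 30.0% of all listed peaks and 12.5% of those on the other arms. Among strong peaks the distal 10q density was 2.49 times that of the other arms (exact interval 1.35 to 4.22), whereas the distal 17q density was 0.157 times it (0.00397 to 0.881). Both values rest on few peaks near the chromosome ends. Without the last 200 kb of 10q its ratio was 0.892 (0.288 to 2.1), on 5 peaks, though the other arms kept their own ends. The 17q ratio rests on 1 peak, and over the other arms without 1q and 8q it was 0.230 with an interval (0.00580 to 1.29) that includes 1.

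The strong peaks of both arms lay mostly at the chromosome ends. The last 200 kb of 10q held 10 peaks, 9 of them strong, with 67 to 131 reads over an input background of 14.1 to 60.4 and folds of only 1.82 to 5.03. They lay 10.0 to 110 kb from the last base of the chromosome, in the stretch where 10q carries copies of the DUX4 repeat. Of these, 8 summits were packed between 133686976 and 133689789, beyond an end of the pseudogene DUX4L20, and 1 lay 2023 bases from an end of the pseudogene DUX4L15 (fold 2.69, 67 reads). The peak closest to the end, at chr10:133787108-133787438, had the highest fold of the 10 (5.03, 75 reads, −log10 q 25.3). The last 200 kb of 17q held 1 peak, at chr17:83247156-83247424, with its summit 10200 bases from the end. It had a fold of 9.52, 73 reads over a background of 6.77 and a −log10 q of 43.8, the highest of the 230. Repeats near chromosome ends occur in near-identical copies on other chromosomes, and the sources used here do not give the placement of reads with several equally good positions.

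**Figure D3:**
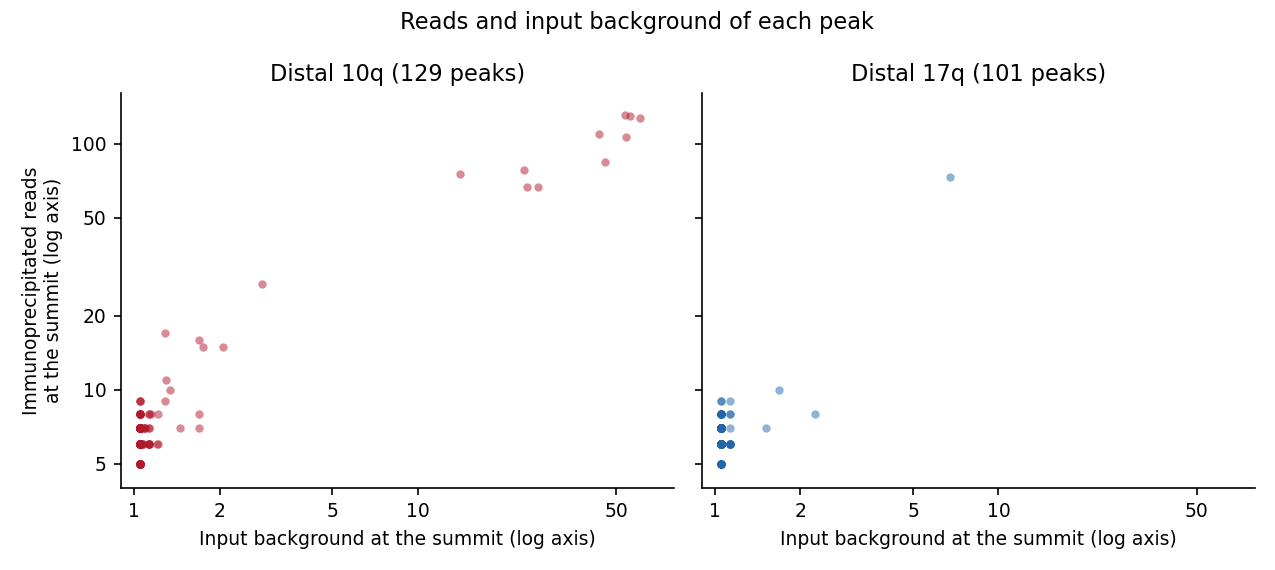
Immunoprecipitated reads at the summit (vertical log axis) against the input background at the summit (horizontal log axis), 1 point per peak, for distal 10q and distal 17q. Most points lie at 5 to 8 reads over a background near 1.05. The 10 points of 10q at 67 reads or more, and the single point of 17q at 73 reads, are the peaks of the last 200 kb.

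Inside the arms, 5 strong peaks remained on 10q (4.20% of 119, exact interval 1.38% to 9.53%) and none on 17q (0 of 100 peaks, which allows a share of up to 3.0% taken as 3 counts of the total, with an exact upper limit of 3.62%). The strongest by fold lay in CFAP58, a cilia and flagella gene, at chr10:104396366-104396455 (fold 7.88, 17 reads, −log10 q 10.3). It was followed by a peak in CASC2, a long noncoding RNA gene, at chr10:118181653-118181726, with the most reads of the 5 (fold 7.33, 27 reads, −log10 q 13.8). A peak 104 kb from SORCS1 at chr10:107285587-107285660 (fold 6.31, 16 reads) was the only strong one in the dense stretch described next. The others lay in AFAP1L2, which encodes an adaptor of actin filaments, at chr10:114360492-114360564 (fold 5.82, 15 reads), and 113 kb from MKI67, the gene of the proliferation marker Ki-67, at chr10:128239623-128239691 (fold 5.24, 15 reads). On 17q the highest internal fold was 4.88, with 9 reads, reached 8.62 kb from KIF2B, a mitotic kinesin gene, at chr17:53833792-53833866, and in SRSF1, a splicing factor gene, at chr17:57999844-57999929. Both had a −log10 q of 3.20.

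Each distal part had 1 dense window, taken as its densest bin among bins at whole multiples of 5 Mb. On 10q the 5 Mb from 105 to 110 Mb held 57 of 129 peaks (44.2%, exact binomial interval 35.5% to 53.2%), or 11.4 per Mb (Poisson range 8.63 to 14.8), and the density was 2.15 per Mb (1.68 to 2.71) in the rest of distal 10q. On 17q the 5 Mb from 50 to 55 Mb held 50 of 101 peaks (49.5%, 39.4% to 59.6%), 10.0 per Mb (7.42 to 13.2), against 1.33 per Mb (0.987 to 1.74) in the rest of distal 17q. The windows were picked for their density, so these ratios, 5.30 on 10q and 7.54 on 17q, are descriptions. Without its window, distal 10q was 2.42 times as dense as proximal 10q (exact interval 1.65 to 3.58) and 1.83 times as dense as the other arms (1.43 to 2.31). Without its window, distal 17q was 3.45 times as dense as proximal 17q (1.27 to 13.1).

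The edges of the windows were set by the 5 Mb grid and not by the peaks. A 5 Mb window at any start held up to 45.0% of distal 10q peaks and 58.4% of distal 17q peaks. On 10q all 5 of the 1 Mb bins held peaks, 9, 10, 18, 14 and 6 from the centromere side outward. On 17q the bins from 50 to 52 Mb held none, and the next 3 held 17, 25 and 8, so that all 50 peaks of the window lay in 3 Mb. Beyond the window, the bins at 55 to 56 Mb and 56 to 57 Mb held 6 and 3 peaks. The empty bins of the 17q window thus depend on where the grid falls. Neighbouring summits were a median of 51.6 kb apart in the 10q window and 31.0 kb apart in the 17q window. Counting summits at most 100 kb from the next as a run, the longest run of either arm had 26 peaks over 768 kb of 17q, at chr17:52877475-53645154, all of 5 to 8 reads and folds of 2.93 to 4.39. The longest run within the 10q window had 10 peaks over 269 kb, at chr10:107254391-107523440, with 5 to 16 reads.

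**Figure D4:**
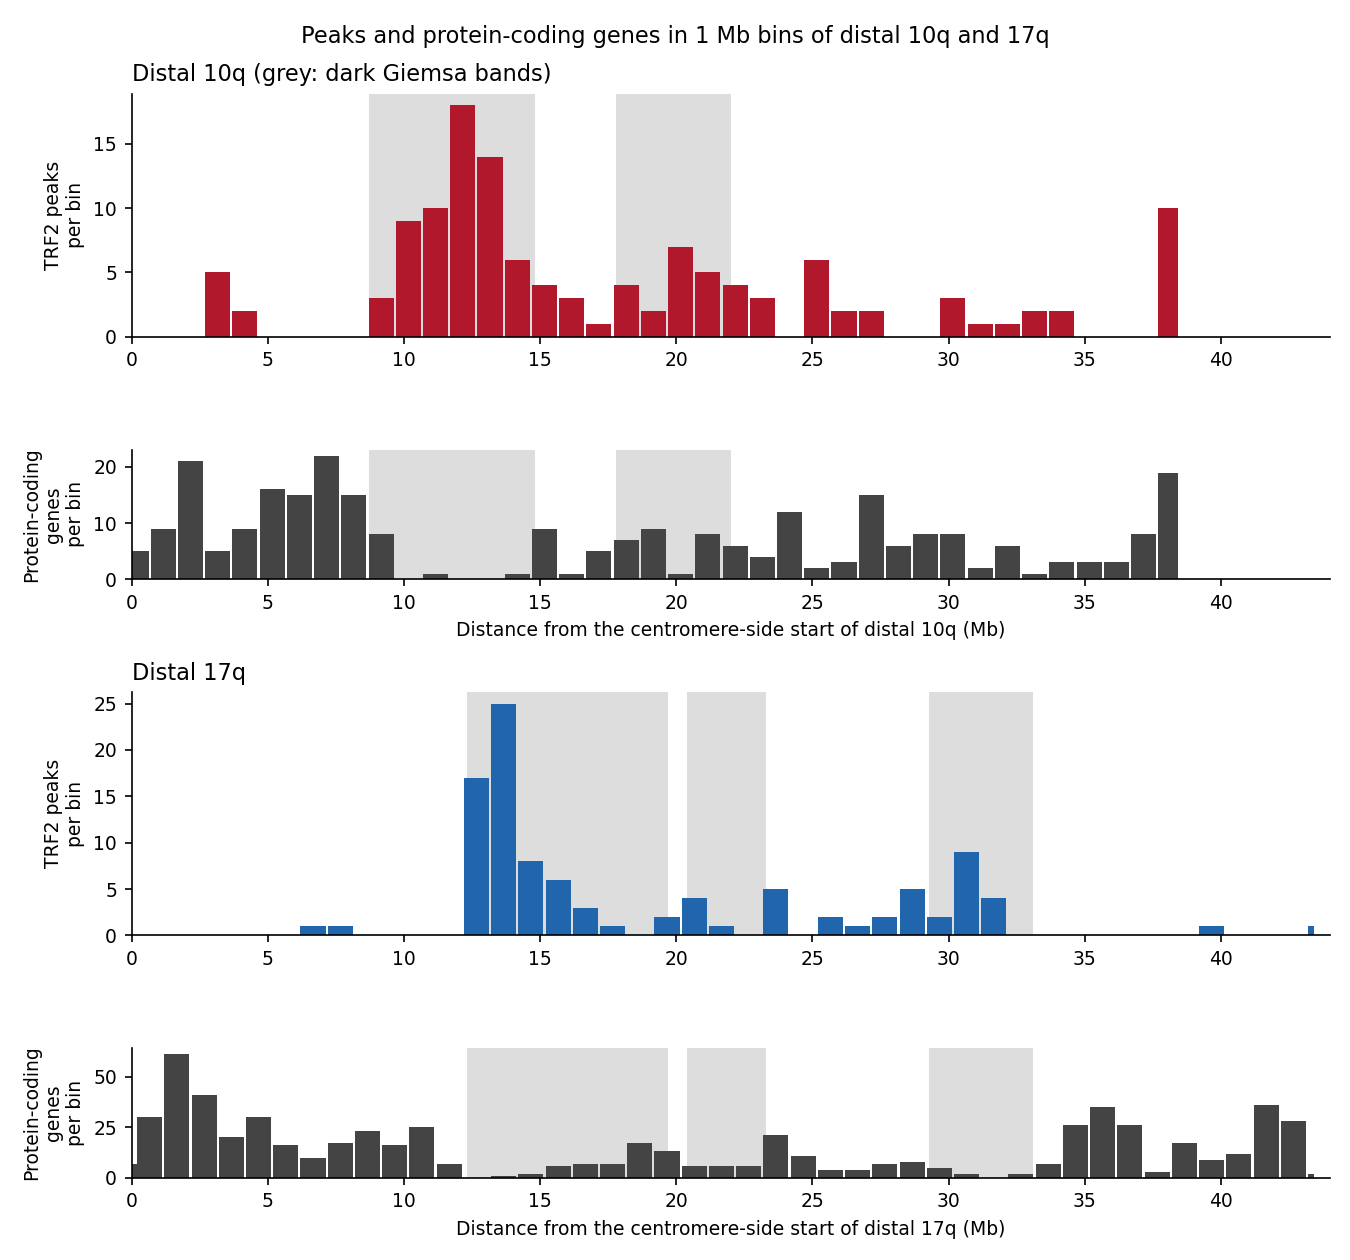
Peaks per 1 Mb bin (coloured bars) and protein-coding genes per bin (dark bars, by gene midpoint) along distal 10q and distal 17q, by distance from the centromere-side start in Mb, with dark Giemsa bands in grey. The tallest bins, with 18 peaks on 10q and 25 on 17q, lie in dark bands with few genes, and gene-rich stretches hold few peaks or none.

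Both windows lay in stretches with few protein-coding genes. The 10q window held 4 such genes, SORCS1, SORCS3, XPNPEP1 and ADD3, or 0.800 per Mb, against 8.12 per Mb in the rest of distal 10q. The 17q window held 36, or 7.20 per Mb, against 15.7 in the rest of distal 17q, but its part without peaks carried most of them, with 25 gene midpoints at 50 to 51 Mb and 7 at 51 to 52 Mb. In its 3 occupied bins there were 0, 1 and 2 midpoints. Of the summits in the window, 9 of 57 on 10q (15.8%, exact interval 7.48% to 27.9%) and 4 of 50 on 17q (8.0%, 2.22% to 19.2%) lay in a protein-coding gene, against 34 of 72 (47.2%) and 32 of 51 (62.7%) in the rest of each arm. Protein-coding genes covered 18.7% of the length of the 10q window and 27.9% of that of the 17q window. They covered 49.4% and 55.7% of the whole intervals. The share of summits on 10q lay near the gene coverage of its window. The 17q coverage was highest in the bins without peaks, 50.3% at 50 to 51 Mb and 62.9% at 51 to 52 Mb. In the occupied bins it was 0.227% where 25 peaks lay, 9.91% where 8 lay, and below 27.9% where 17 lay. The 17q share of 8.0% lay within the range of coverage of the bins that held the peaks.

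Over the full 1 Mb bins of each interval, dense windows included, bins with few genes held more peaks per Mb. In bins with at most 5 protein-coding genes there were 5.24 peaks per Mb on distal 10q (exact Poisson interval 4.20 to 6.44) and 6.80 on distal 17q (5.28 to 8.62). In bins with 16 genes or more there were 0 peaks on distal 10q in 3 bins (upper bound 1.23 per Mb). On distal 17q there were 0.333 per Mb in 18 such bins (0.122 to 0.726). The last bin of 10q, shorter than 1 Mb and left out here, had 19 genes and held 10 peaks. Across full 1 Mb bins the Spearman rho between peaks and genes was −0.631 on 10q (37 bins) and −0.642 on 17q (43 bins), and Pearson's r was −0.550 and −0.405. Outside the windows the contrast was smaller. There, bins with at most 5 genes held 2.67 peaks per Mb on 10q (1.82 to 3.76) and 2.57 on 17q (1.52 to 4.06), and bins with 6 to 15 genes held 1.76 (1.19 to 2.52) and 1.86 (1.21 to 2.72), with overlapping intervals. Bins with 16 genes or more there held 0 peaks on 10q (3 bins, upper bound 1.23 per Mb). On 17q they held 0.353 per Mb (17 bins, 0.130 to 0.768). Both intervals lay below those of bins with at most 5 genes. Of the bins with at most 5 genes outside the windows, 2 of 12 on 10q and 2 of 7 on 17q held no peak. Outside the windows the rho was −0.434 on 10q (32 bins) and −0.560 on 17q (38 bins). These are descriptions, since neighbouring bins of 1 library share sequence composition and input depth.

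In the longest stretches without a summit, gene density ran from near the arm average to above it. That average was 7.17 protein-coding genes per Mb on distal 10q and 14.7 on distal 17q. On 17q the first 6.86 Mb of the interval, with 208 protein-coding genes (30.3 per Mb) and BRCA1 among them, held no summit. A further 7.73 Mb from 71912991 to 79641238 with 119 genes (15.4 per Mb) also held none. So did 5.01 Mb from 47026352 to 52037180 with 87 genes (17.4 per Mb). On 10q the longest empty stretch ran over 5.29 Mb from 99105381 to 104396407 and contained 83 genes (15.7 per Mb). The next longest on 10q, of 4.40 Mb, had 8.19 per Mb. The nearest peaks outside the rule lay 2350 kb before the start on 10q (fold 4.39, 8 reads) and 318 kb before the start on 17q (fold 5.38, 18 reads), and the first members lay 2980 kb (fold 4.08, 8 reads) and 6860 kb (fold 3.29, 6 reads) after it.

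Peaks also lay mostly in dark bands. Giemsa staining marks AT-rich, gene-poor chromatin as dark bands and gene-rich chromatin as light ones. Dark bands (the 2 darkest classes) of distal 10q held 7.86 peaks per Mb (95% Poisson range 6.25 to 9.77), and its light bands held 1.47 (0.974 to 2.12), a ratio of 5.36 (3.45 to 8.56). Of its 28 light-band peaks, 10 lay in the last 200 kb, without which light bands held 0.943 per Mb (0.559 to 1.49) and the ratio was 8.34 (4.96 to 14.8). Distal 17q had 5.67 per Mb (4.50 to 7.06) in dark bands, against 0.764 (0.445 to 1.22) in light bands, a ratio of 7.43 (4.36 to 13.4). On the other arms the dark-to-light ratio was 1.41 (1.31 to 1.53) and on distal 8q it was 1.96 (1.62 to 2.39), and the intervals of both distal parts lay above these. Leaving out the dense windows, the ratio was 3.09 on 10q (1.71 to 5.53) and 3.84 on 17q (2.02 to 7.63), and both intervals then overlapped that of distal 8q. Band q25.1 of chromosome 10 held 61 peaks (10.0 per Mb) and band q22 of chromosome 17 held 59 (7.97 per Mb). The light bands q24.1, q24.31 and q24.33 of chromosome 10, and q21.1 and q25.1 of chromosome 17, held none.

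**Figure D5:**
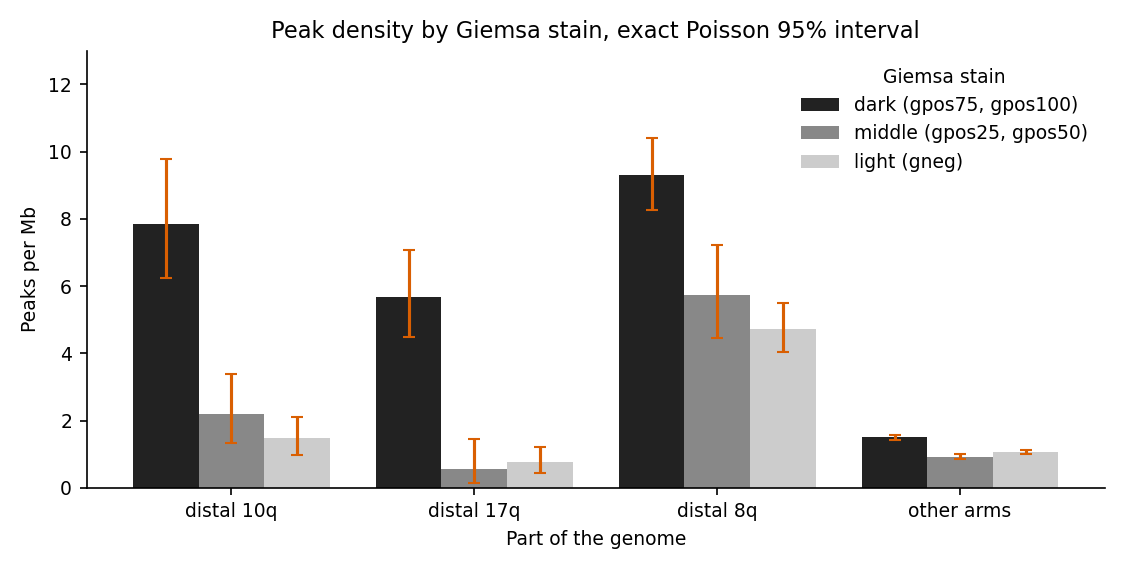
Peaks per Mb (vertical axis) in dark, middle and light Giemsa bands of distal 10q, distal 17q, distal 8q and the other arms, with exact Poisson 95% intervals. Dark bands had 7.86 and 5.67 peaks per Mb on distal 10q and 17q, against 1.5 on the other arms. Light bands had 1.47 (0.974 to 2.12) on distal 10q and 0.764 (0.445 to 1.22) on distal 17q. Both of these intervals included the density of the light bands of the other arms (1.06).

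Genes with a summit were mostly long. Of 276 protein-coding genes on distal 10q, 22 held a summit in the gene body (7.97%), and of 639 on distal 17q, 20 did (3.13%), against 4.43% of 18332 genes on the other arms. Genes with a summit had a median length of 136 kb over both arms, against 17.4 kb for those without. A longer gene has more sequence in which a summit can fall, so these lengths are descriptions. Among genes of 200 kb or longer, 5 of 21 on 10q and 9 of 19 on 17q held a summit, and among genes under 50 kb 4 of 174 and 1 of 513 did. Of all members, 45.7% of summits lay in the body of an annotated gene of any kind (exact interval 39.1% to 52.3%), against 52% (50.2% to 53.8%) on the other arms. Gene bodies made up 60.5% of the length of distal 10q and 65.2% of that of distal 17q.

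On 10q the gene with the most summits was SORCS1, a sorting receptor of the VPS10 family, which carried 7 summits of 5 to 8 reads (fold 2.93 to 4.39), and its relative SORCS3 carried 3, each of 7 reads (fold 3.90). ATRNL1, an attractin-like membrane protein, and HPSE2, a heparanase relative that binds heparan sulfate, carried 6 each, with 5 to 7 reads and folds of 2.93 to 3.90. Per 100 kb of gene these came to 1.15 summits in SORCS1, 0.481 in SORCS3, 0.701 in ATRNL1 and 0.699 in HPSE2. The 10q window, which holds SORCS1 and part of SORCS3, had 11.4 peaks per Mb, against 2.15 per Mb in the rest of distal 10q. SORCS1 was thus about as dense as its window. The genes were named for their summits, so these densities are descriptions. PDZD8, a lipid-transfer protein of organelle contacts, is shorter at 98.2 kb and carried 3 summits (3.06 per 100 kb) of 5 to 6 reads. DHX32, a helicase-like gene, carried a pair of peaks of 11 and 10 reads (fold 5.24 and 4.70), which lay 361 and 19 bases, in that order, from an end of RNU2-42P, a pseudogene of the U2 spliceosomal RNA.

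On 17q TANC2, a scaffold protein of synapses, carried 5 summits (fold 3.41 to 4.39, 6 to 8 reads) and STXBP4, a syntaxin-binding protein, carried 4 (fold 3.41 to 4.39). ANKFN1, BCAS3, a microtubule-associated protein of cell migration, and CA10, a carbonic anhydrase relative without enzyme activity, carried 3 each, with the highest fold in ANKFN1 (4.70, 9 reads). PRKAR1A, the regulatory subunit of protein kinase A, carried 2, of which the stronger had 10 reads (fold 4.09). CEP112 and HELZ also carried 2. So did LRRC37A2, with 6 and 8 reads, which belongs to a family of near-identical copies on 17q whose reads may be split between copies.

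Gene ends were rarely near a peak. A summit within 3 kb of an end was found for 6 of 915 protein-coding genes on both distal parts (0.656%), near the 0.551% of the other arms. They rested on 5 peaks, all of 6 or 7 reads. One peak lay between MXI1, an antagonist of MYC, and SMNDC1, a splicing factor gene, at 1514 and 1851 bases from their ends (fold 3.41). The others lay 709 bases from PNLIPRP3 (fold 3.90), 1909 bases from KCNJ2, a potassium channel gene (fold 3.29), 2392 bases from an end of AMZ2 (fold 3.19) and 2729 bases from ABCA10 (fold 3.90). The peak beside KCNJ2 lay in the body of KCNJ2-AS1, its antisense gene, and the one beside ABCA10 lay in the body of ABCA5. Counting genes of any kind, 23 of 230 summits (10.0%, exact interval 6.45% to 14.6%) were within 3 kb of an end, against 11.9% (10.8% to 13.1%) on the other arms.

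Gene groups of these arms were then counted, with 4.59% of the 915 protein-coding genes holding a summit in the body as background. That background pools genes of all lengths. Median length was 3.79 kb for the homeobox genes, 21.2 kb for the 17q markers, 21.1 kb for the potassium channel genes and 40.5 kb for the DNA repair and telomere genes. Among genes under 50 kb, 4 of 174 on 10q and 1 of 513 on 17q held a summit. With lists this small and genes this short, holding none does not set a group apart from the background. Of 13 colorectal cancer and Wnt genes, 1 had a summit, PRKAR1A, whereas TCF7L2, the main Wnt transcription factor of the colon, AXIN2, a Wnt feedback inhibitor, and RNF43, which removes Wnt receptors, had none. Of 14 DNA repair and telomere genes none had a summit in the body. These include BRCA1 and both STN1 and TEN1, subunits of the CST complex that completes telomere replication. SMNDC1, placed on this list, had the peak between it and MXI1 within 3 kb. None of 19 homeobox genes and none of 6 mitotic and copy gain markers of 17q, such as BIRC5 and TOP2A, had a summit within 3 kb or in the body. Of 5 ABCA lipid transporter genes on 17q, ABCA5 (7 reads, fold 3.90) and ABCA6 (5 reads, fold 2.93) had 1 each, and of 4 potassium channel genes none had one in the body. Of 18 long or dense-window genes 8 had a summit, but this list was drawn up with the windows known. Peaks of 5 or 6 reads were at the lower edge of the list, so a weaker signal at the other genes was not detectable at this depth.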

How the data were processed

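TRF2 immunoprecipitated (5 μg antibody per 100 μg chromatin) and input chromatin of HCT116 was sonicated to about 300 to 400 bp, per the labels. Per the submitters' processing notes, the tools included ChIPseeker 1.36.0, HOMER, MACS2 2.1.0 and Bowtie2 2.3.2, with hg38 and GRCh38 as builds and no settings. In the deposited list each score equals 10 times −log10 p, cut to a whole number. The deposited fold is a ratio of pileup to local input background at the summit, and the deposited −log10 p and −log10 q are values of the authors' peak caller there. No −log10 p was below 3.01. They served only to describe, rank and filter peaks.

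Pileup and background were recovered from fold, taken as pileup plus 1 over background plus 1, and p, taken as the upper Poisson tail. A whole pileup matched in 100% of peaks (tolerance 0.001, largest residual 0.00014). The sources used here give no library depths. Bands came from circlize 0.4.16 (R 4.3.3), and genes from RefSeq (GRCh38.p14; 58961 of 59792 rows, those on other sequences being left out), without exons. Intervals are exact Poisson, exact binomial (Clopper-Pearson) or, for density ratios, exact conditional, at 95%. Recovery and intervals were tested on simulated data. The work used pandas 2.3.3, scipy 1.17.1, matplotlib 3.10.9 and numpy 2.4.6 under Python 3.11.15. The alternatives tried were stricter q-values, merged summits, trimmed chromosome ends, membership by overlap, other arms without 1q and 8q, shifted or left-out dense windows, other gene-end distances and protein-coding genes alone.

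The members, windows and gene lists were chosen with earlier results of these data known. Named peaks are the 5 of highest fold and the 5 of highest −log10 q per arm and every strong peak. Named genes are those with 2 or more summits, with a summit within 3 kb of an end, or on the lists. Coordinates are 1-based.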

Additional observations from a re-analysis of the deposited data

How the results depend on the processing

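Of 87 recomputed values, 56 stayed within their interval (counts and densities within 1.5 times), 28 moved and 3 reversed. All 15 recomputed with summits within 1 kb merged and all 15 without the last 2 Mb of each chromosome stayed. At a q-value under 0.05 distal 10q kept 74 peaks (1.92 per Mb) and distal 17q 48 (1.10 per Mb), and no ratio left its interval. At a −log10 q of 5 or more, 14 peaks (0.364 per Mb) were left on distal 10q and 1 (0.0230 per Mb) on distal 17q. There the density ratio of distal 17q reversed, to 0.120 over proximal 17q and 0.157 over the other arms, while that of distal 10q over proximal 10q was 18.8 and that of distal 10q over distal 17q was 15.8. Of the 14 strong peaks of distal 10q, 9 lay in the last 200 kb. Without these, in an alternative chosen after seeing the data, the ratio over proximal 10q was 6.75 (0.755 to 319). Over the other arms, which kept their own ends, it reversed to 0.892 (0.288 to 2.1), and both intervals include 1. Over all strong peaks the share in the dense window was 7.14% on 10q and 0% on 17q, the median fold 2.95 and 9.52, and the share of members near a gene end and in a gene body 20% each. The value 0.120 rests on 1 distal and 2 proximal peaks, with an interval (0.00203 to 2.3) that includes 1, 18.8 rests on 1 proximal peak, and 15.8 on 1 peak of 17q. Without 1q and 8q among the other arms, the density ratio was 3.51 for distal 10q and 2.44 for distal 17q. Without the dense window, distal 10q over proximal 10q was 2.42, and, in alternatives chosen after seeing the data, the ratio over the other arms was 1.83 for distal 10q and 1.13 for distal 17q, and the dark-to-light ratio was 3.09 on 10q and 3.84 on 17q. The share near a gene end was 3.04% within 1 kb, 30% within 10 kb and 2.17% for protein-coding genes, which held 34.3% of summits in their bodies. No paired analysis was possible because there was 1 library per group and no test between samples. Peaks of 5 reads were the shallowest listed, which limits what depth allows.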
